A study of Homo sapiens with 24 samples.

Results

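The genes described are 10 cyclin and cyclin-dependent kinase (CDK) genes, CCND1, CCND2, CCND3, CCNE1, CCNE2, CCNA2, CCNB1, CDK1, CDK2 and CDK6, taken by Entrez identifier from the 25702 identifiers of each count file. RNA-seq counts of 24 samples were analysed, 6 biological replicates in each of 4 groups. All samples were IMR90 cells, human diploid lung fibroblasts, infected with ER:HRAS(G12V), a fusion of the oestrogen receptor with oncogenic HRAS that is switched on by 4-hydroxytamoxifen (4OHT). The growing group carried the MSCV vector and the shHMGA1 group the MSCV miR30 shHMGA1 hairpin, both with no agent. The RIS (RAS-induced senescent) group carried the vector and the RIS+shHMGA1 group the hairpin, both with 4OHT for 6 days. The comparisons asked how cell cycle transcripts differ with RAS, and whether knockdown of HMGA1, an architectural chromatin protein needed for senescence-associated heterochromatic foci, alters that difference. One hairpin was used, its control was a vector without a hairpin, and no untransduced cells were analysed here.

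Cyclins are regulatory subunits that activate CDKs at set points of the cell cycle. D-type cyclins bind CDK4 and CDK6 in G1 and start the phosphorylation of RB, E-type cyclins bind CDK2 at entry into S phase, cyclin A2 acts in S phase and G2, and cyclin B1 with CDK1 drives mitosis. Senescence is a lasting arrest of this cycle in which the CDK inhibitors p16 and p21 are known to act. The transcripts of the S and M phase genes are made mostly in cycling cells, under E2F factors and the DREAM and MYB-MuvB complexes, which bind E2F sites, CCAAT boxes and cell cycle homology region (CHR) elements in promoters. In bulk RNA, fewer cycling cells and less RNA in each cell cannot be told apart.

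Promoter windows from RefSeq (GRCh38.p14, from 250 bases before to 50 after an annotated start) were matched for 6 of the 10 genes. The stretches of 130 bases before the start are shown for CCNA2 (chr4:121823884-121824013, minus strand), CCNB1 (chr5:69167020-69167149, plus strand) and the downstream start of CDK1 (chr10:60778348-60778477, plus strand). These 3 genes had the changes with RAS described below, and their matches to the letters searched differ. Capitals mark matches on either strand to TTTNNCGC (E2F), TTTGAA (CHR), CTTGAA (a CHR variant) or CCAAT, whose reverse complement reads ATTGG, and the last base lies next to the start.
CCNA2: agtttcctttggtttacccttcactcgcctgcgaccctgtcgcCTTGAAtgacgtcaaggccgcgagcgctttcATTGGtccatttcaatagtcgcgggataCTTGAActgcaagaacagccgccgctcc
CCNB1: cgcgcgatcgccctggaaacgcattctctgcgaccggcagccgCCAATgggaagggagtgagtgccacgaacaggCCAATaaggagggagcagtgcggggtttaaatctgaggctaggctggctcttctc
CDK1: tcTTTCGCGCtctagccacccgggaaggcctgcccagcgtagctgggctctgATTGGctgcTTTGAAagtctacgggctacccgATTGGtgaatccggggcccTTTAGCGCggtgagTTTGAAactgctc

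In the CCNA2 stretch a CCAAT match on the opposite strand at −56 lay between CTTGAA matches at −87 and −28. The CCNB1 stretch held CCAAT at −87 and −55 and no match to the other letters searched. Other forms of the E2F and CHR motifs were not searched, so a gene without a match may still hold one. In the CDK1 stretch CCAAT matches on the opposite strand at −78 and −46 stood beside TTTGAA at −69 and −13, with E2F matches at −128 and −27. None of the motifs searched matched in the windows of CCNE1 and CDK6, and CCND3 had CCAAT matches only. Of 35114 promoter windows of the same length, 6.89% held the E2F letters, 15.2% TTTGAA, 11.2% CTTGAA and 34.6% CCAAT, and 9.23% held CCAAT together with TTTGAA or CTTGAA. Such matches are letters only and were not tested for binding.

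Total counts ranged from 8698070 to 23103424 per sample, and the lowest count of any of the 10 genes in a sample was 45, for CCNE2 in a RIS sample. HMGA1 itself lay between 638.9 and 860.9 CPM (read counts scaled to library size) in the growing samples and between 54.4 and 143.4 CPM in the shHMGA1 samples, and fell 4.15-fold in RIS+shHMGA1 against RIS (adjusted p = 0.000648). The fibroblast list (COL1A1, COL1A2, COL3A1, VIM, THY1, PDGFRB and LUM) summed to between 4257 and 39965 CPM. It was lower with RAS in 6 of its 7 genes in RIS+shHMGA1 against shHMGA1, where 19.5% of all genes fell. Markers of other cell types were near background, with an endothelial sum of at most 2.65 CPM, CDH1 and KRT5 at no more than 0.155 CPM and PTPRC at no more than 0.688 CPM, while KRT18 and CD68, which fibroblasts also express, made up most of the epithelial and leukocyte sums. The part of these markers in the results was not tested.

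A pair of libraries went against their labels. Growing replicate 4 had IL1A, an early cytokine of the senescence secretome, at 541.5 CPM against 18.3 to 39.9 CPM in the other growing samples, and MKI67, a proliferation marker, at 3.73 against 87.6 to 152.1 CPM. RIS replicate 2 had IL1A at 24.9 CPM against 407.0 to 553.2 CPM in the other RIS samples, and MKI67 at 140.8 against 3.16 to 6.85 CPM. HMGA1 in both was at the level of the vector samples, 666.9 and 712.8 CPM. Both libraries were kept in their labelled groups, the cause was not tested, and results that rest on them are also given without both. They were picked from these same data, so leaving them out is a choice made after the data were seen. The adjusted p values given without both do not allow for that choice.

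A gene was called changed where its FDR was below 0.01 and its log2 fold change beyond ±0.58, in edgeR fits over all genes. The main fit used a spread shared by all 24 samples. Growing replicate 4 and RIS replicate 2 therefore enter the standard errors and adjusted p of every comparison in that fit. In RIS+shHMGA1 against shHMGA1, whose groups hold neither of the departing libraries, 7 of the 10 genes fell and none rose. These were CCND3, CCNE2, CCNA2, CCNB1, CDK1, CDK2 and CDK6, and their falls ran from 1.93-fold for CCND3 to 5.60-fold for CCNA2. Of all 13356 genes tested, 39.1% changed and 19.5% fell. The median log2 fold change was −1.84 over the 10 genes and −0.02 over all genes tested. In 8 genes, the 7 above and CCND1, every RIS+shHMGA1 sample lay below every shHMGA1 sample, an order that 22.5% of all genes had. With both departing libraries left out of the fit, 8 of the 10 genes passed, as did 5959 genes over all. In a fit of these groups alone, 9 of the 10 genes passed, as did 5762 genes over all.

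In RIS against growing with all 12 samples, none of the 10 genes passed the thresholds in edgeR and neither did any other gene (0% of 13356), although 7 of the 10 had an unadjusted p under 0.05, as did 33% of all genes. The smallest adjusted p over all genes was 0.0140. DESeq2 called 5 of the 10 and 6.23% of all genes, and voom with sample weights all 10 and 47.3% of all genes. Without growing replicate 4 and RIS replicate 2, a choice made after the data were seen, 9 of the 10 passed, 8 lower and CCNE1 higher. Of all 13416 genes tested there, 39.7% changed and 20.5% fell. Leaving out growing replicate 4 alone gave 7 of the 10 and 25.4% of all genes, and leaving out RIS replicate 2 alone gave 7 of the 10 and 19.2%. Without both, the 5 RIS samples lay below the 5 growing samples in 7 genes, an order that 19.3% of all genes had.

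**Figure D1:**
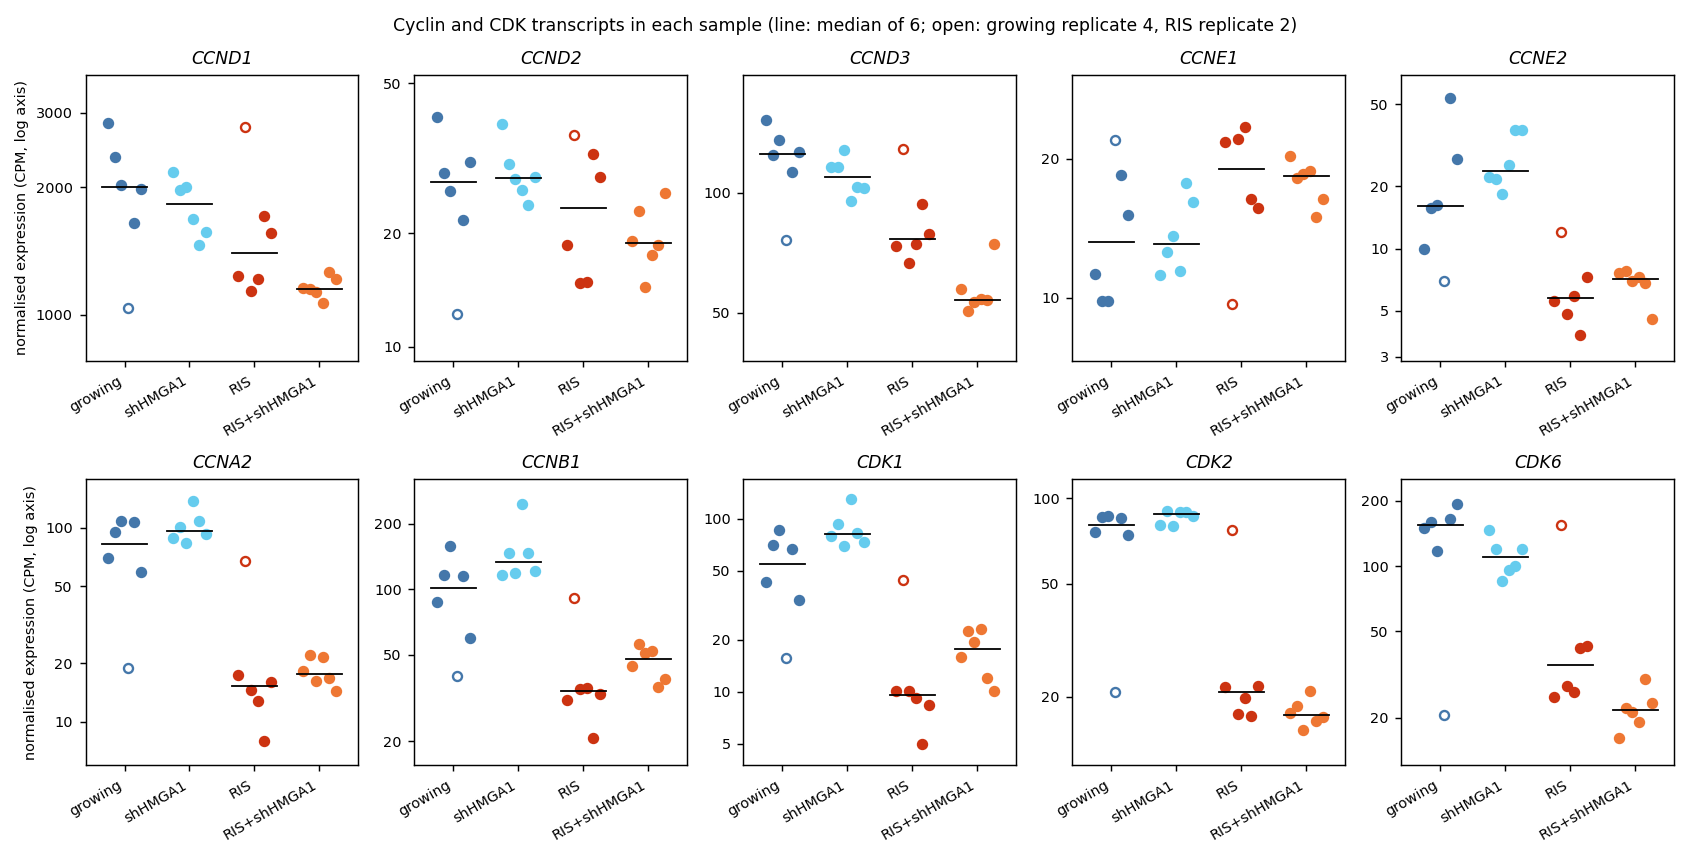
Normalised expression (CPM, log axis) of the 10 genes in each of 24 samples, by group. Points are samples in order of replicate number, lines are medians of 6, and open circles are growing replicate 4 and RIS replicate 2. CDK2 sits between 80.1 and 90.1 CPM in shHMGA1 and between 15.3 and 20.9 CPM in RIS+shHMGA1, whereas the ranges of CCNE1 and CCND2 overlap in every comparison.

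The D-type cyclins, sensors of growth signals in G1, had log2 fold changes of −0.57 to −0.95 in RIS+shHMGA1 against shHMGA1, where CCNA2, CCNB1 and CDK1 had −1.69 to −2.48. CCND1 (chromosome 11, 69455924 to 69469242, hg19) was the most abundant of the 10 transcripts per kilobase in all groups. It ranged from 1036.5 to 2843 CPM in growing samples with a median of 2004, and from 1459 to 2172 CPM in shHMGA1 samples with a median of 1828. In the RIS samples it ranged from 1136 to 2774 CPM with a median of 1397, and in the RIS+shHMGA1 samples from 1067 to 1260 CPM with a median of 1154. The hairpin-carrying groups did not overlap, while the vector groups did, even without the departing libraries. The log2 fold change in RIS+shHMGA1 against shHMGA1 was −0.64 ± 0.21 (n = 6 and 6, SE from the fit over all 24 samples). It was short of the FDR threshold (adjusted p = 0.0130). In an edgeR fit of the hairpin-carrying groups alone it was −0.66 and passed (adjusted p = 5.92e-05). It passed without the departing libraries in the same comparison (−0.64 ± 0.13, adjusted p = 0.000200), where 8 of the 10 genes and 44.4% of all genes then passed, and in RIS against growing (−0.66 ± 0.15, adjusted p = 0.000426), where with all samples it was −0.30 ± 0.21. LTO1, on the opposite strand, overlaps 497 of the 4238 bases of the canonical CCND1 transcript.

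CCND3 (chromosome 6, 41902672 to 42018095) had the only fall among D-type cyclins that passed in RIS+shHMGA1 against shHMGA1 in the edgeR fit over all samples. Its level ranged from 95.3 to 128.1 CPM in shHMGA1 samples with a median of 109.9, and from 50.5 to 74.2 CPM in RIS+shHMGA1 samples with a median of 54.0. The groups did not overlap, and the log2 fold change was −0.95 ± 0.16 (adjusted p = 0.000222). Growing samples ranged from 76.1 to 152.4 CPM and RIS samples from 66.6 to 129.1 CPM, with growing replicate 4 lowest in its group and RIS replicate 2 highest in its group. Without these, CCND3 was 1.68-fold lower in RIS (−0.75 ± 0.12, adjusted p = 6.27e-06) and the groups did not overlap.

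CCND2 (chromosome 12, 4378937 to 4414519) was the least abundant of the 10 per kilobase in growing and shHMGA1 cells. It did not pass in any comparison in the edgeR fits over all samples or without the departing libraries. It ranged from 12.2 to 40.6 CPM in growing, 23.7 to 39.1 in shHMGA1, 14.8 to 36.4 in RIS and 14.4 to 25.6 CPM in RIS+shHMGA1 samples. All of these ranges overlapped. The log2 fold change was −0.57 ± 0.24 in RIS+shHMGA1 against shHMGA1 (adjusted p = 0.0454), and −0.45 ± 0.21 in RIS against growing without the departing libraries (adjusted p = 0.0631). In an edgeR fit of the hairpin-carrying groups alone the first was −0.59 and passed (adjusted p = 0.0012). Exons of CCND2-AS1 and of a second gene overlap 999 of its 6493 canonical bases.

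CDK6 (chromosome 7, 92234235 to 92465887), a kinase partner of the D-type cyclins, had a larger fall than any of the D-type cyclins in RIS+shHMGA1 against shHMGA1. Its level ranged from 85.0 to 146.2 CPM in shHMGA1 samples with a median of 109.6, and from 16.1 to 30.3 CPM in RIS+shHMGA1 samples with a median of 21.7. The groups were far apart, with a log2 fold change of −2.33 ± 0.43 (5.02-fold lower, adjusted p = 0.000320). Growing samples other than replicate 4 ranged from 117.0 to 194.1 CPM and RIS samples other than replicate 2 from 24.9 to 43.0 CPM. Growing replicate 4 had 20.6 CPM and RIS replicate 2 had 153.8 CPM, each at the level of the opposite group. CDK6 was 4.79-fold lower in RIS than in growing samples without these libraries (−2.26 ± 0.19, adjusted p = 2.52e-10), against −1.34 ± 0.42 with all samples (adjusted p = 0.0360).

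CDK4, the other kinase partner of the D-type cyclins, went the opposite way. It rose in RIS+shHMGA1 against shHMGA1 by 0.69 ± 0.19 on the log2 scale (adjusted p = 0.00388), and in RIS against growing without the departing libraries by 0.77 ± 0.12 (adjusted p = 4.19e-06). With all samples the second difference was 0.42 ± 0.19 (adjusted p = 0.126).

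**Figure D2:**
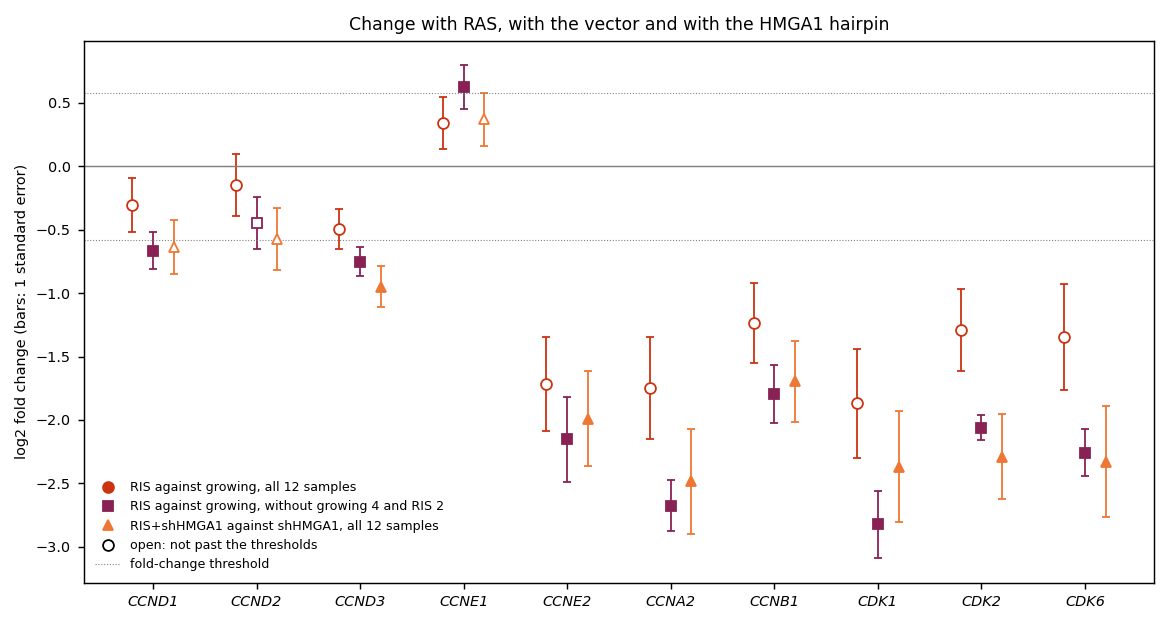
Log2 fold change of each gene with RAS, for RIS against growing with all 12 samples (circles) and without growing replicate 4 and RIS replicate 2 (squares), and for RIS+shHMGA1 against shHMGA1 (triangles). Bars are 1 standard error, filled symbols passed the thresholds, and dotted lines mark ±0.58. CCNE2, CCNA2, CCNB1 and the 3 kinases lie at or below −1.23 in all 3 series, CCNE1 lies above 0, and the D-type cyclins lie between −0.95 and −0.15.

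The E-type cyclins, partners of CDK2, moved in opposite directions. CCNE1 (chromosome 19, 30302898 to 30315219) ranged from 9.83 to 22.0 CPM in growing samples with a median of 13.2, and from 9.70 to 23.4 CPM in RIS samples with a median of 19.0. In shHMGA1 samples it ranged from 11.2 to 17.7 CPM with a median of 13.1, and in RIS+shHMGA1 samples from 14.9 to 20.3 CPM with a median of 18.3. The ranges overlapped in both comparisons. Growing replicate 4, at 22.0 CPM, was the highest of the growing samples and RIS replicate 2, at 9.70 CPM, the lowest of the RIS samples. Without both, CCNE1 rose in RIS by 0.63 ± 0.17 on the log2 scale (1.54-fold, adjusted p = 0.00281). With all samples the difference was 0.34 ± 0.21 (adjusted p = 0.256), and in RIS+shHMGA1 against shHMGA1 it was 0.37 ± 0.21 (adjusted p = 0.119).

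The difference in CCNE1 was uneven across replicate numbers. Between same-numbered RIS+shHMGA1 and shHMGA1 samples it was 0.85, 0.53, 0.44 and 0.71 on the log2 scale in numbers 1 to 4, and −0.24 and 0.02 in numbers 5 and 6. In RIS less growing samples it came to 0.94 and 1.15 in numbers 1 and 3, and −0.17 and 0.04 in numbers 5 and 6. Numbers 2 and 4, which hold RIS replicate 2 and growing replicate 4, had −0.02 and 0.09. CCND1 also moved less in numbers 5 and 6, by −0.21 and −0.37 between the hairpin groups against −0.66 to −0.91 in numbers 1 to 4. CCND2 leaned the same way, but not all genes did. CCNE2 moved more in numbers 5 and 6, by −2.43 and −2.99 against −1.39 to −1.77. CDK1 did so as well, by −2.78 and −2.84 against −1.84 to −2.50. HMGA1 stood apart in the same numbers. Its log2 difference between shHMGA1 and growing samples was −3.58 and −3.77 in numbers 5 and 6 against −2.18 to −2.75 in numbers 1 to 4, and between RIS+shHMGA1 and RIS samples −3.71 and −3.23 against −1.50 to −1.94. The labels give no batch and no tie between samples of 1 number, and the part of numbers 5 and 6 in the results was not tested. Without numbers 5 and 6 and the departing libraries, a choice made after the data were seen, all 10 genes passed in both comparisons with RAS, as did 47.8% of all genes in RIS against growing and 47.7% in RIS+shHMGA1 against shHMGA1.

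CCNE2 (chromosome 8, 95891998 to 95908906) fell. It ranged from 18.4 to 37.5 CPM in shHMGA1 samples with a median of 23.7, and from 4.56 to 7.77 CPM in RIS+shHMGA1 samples with a median of 7.13. No samples overlapped, and the log2 fold change was −1.99 ± 0.37 (3.97-fold lower, adjusted p = 0.000328). Growing samples ranged from 6.94 to 53.4 CPM, with replicate 5 highest and replicate 4 lowest. RIS samples ranged from 3.81 to 12.1 CPM, with replicate 2 highest. The log2 fold change in RIS was −1.71 ± 0.37 with all samples (adjusted p = 0.0148) and −2.15 ± 0.34 without the departing libraries (adjusted p = 7.00e-06).

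Exons of other genes, INTS8 among them, cover 1526 of the 2674 canonical bases of CCNE2 from the opposite strand, and the strand setting of the counting is not given in the sources used here. INTS8, a subunit of the Integrator complex, lay between 21.2 and 38.4 CPM in all samples. Its log2 fold change was 0.10 ± 0.13 in RIS+shHMGA1 against shHMGA1 (adjusted p = 0.504) and did not pass.

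The balance of the E-type cyclins shifted with RAS. Per kilobase of canonical transcript, log2 CCNE2 less log2 CCNE1 had a median of 0.57 in shHMGA1 samples, from −0.02 to 0.75, and of −1.82 in RIS+shHMGA1 samples, from −2.26 to −1.56. In growing samples the median was 0.24 and in RIS samples −2.40. Growing replicate 4 had −2.09 and RIS replicate 2 had −0.14, again each at the level of the opposite group. The sign in samples without RAS depends on the length used, since with the union of all exons growing replicate 2 goes from 0.22 to −0.16, but the drop between groups does not.

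CDK2 (chromosome 12, 56360565 to 56366573), the kinase of the E-type cyclins and of cyclin A2, ranged from 80.1 to 90.1 CPM in shHMGA1 samples with a median of 88.0, and from 15.3 to 20.9 CPM in RIS+shHMGA1 samples with a median of 17.2. The log2 fold change was −2.29 ± 0.34 (4.89-fold lower, adjusted p = 0.000185). Growing samples other than replicate 4 lay between 74.3 and 86.6 CPM and RIS samples other than replicate 2 between 17.2 and 21.8 CPM. The 2 exceptions had 20.7 and 77.4 CPM. Without them the log2 fold change was −2.06 ± 0.10 (4.18-fold lower, adjusted p = 1.44e-14), and with them −1.29 ± 0.32 (adjusted p = 0.0179). Opposite-strand genes, PMEL among them, overlap 376 of the 2240 canonical bases. PMEL lay between 0.129 and 2.28 CPM over all samples, where CDK2 had at least 15.3 CPM.

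The cyclins of S phase and mitosis fell with RAS. CCNA2 (chromosome 4, 122737599 to 122745038), whose CTTGAA and CCAAT matches are shown above, ranged from 83.8 to 137.6 CPM in shHMGA1 samples with a median of 96.7, and from 14.4 to 22.1 CPM in RIS+shHMGA1 samples with a median of 17.6. Its log2 fold change of −2.48 ± 0.41 (5.60-fold lower, adjusted p = 0.000222) was the largest of the 10. Growing samples other than replicate 4 ranged from 59.1 to 107.9 CPM and RIS samples other than replicate 2 from 7.95 to 17.4 CPM. Growing replicate 4 had 18.9 CPM and RIS replicate 2 had 67.8 CPM. Without them CCNA2 was 6.39-fold lower in RIS (−2.68 ± 0.20, adjusted p = 4.54e-11), and with them −1.74 ± 0.40 on the log2 scale (adjusted p = 0.0155). EXOSC9, an exosome subunit that overlaps 254 of the 2748 canonical bases of CCNA2 from the opposite strand, also fell, by 0.84 ± 0.19 in RIS+shHMGA1 against shHMGA1 (adjusted p = 0.000923). The part of shared reads was not tested.

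CCNB1 (chromosome 5, 68462962 to 68474072), the activator of CDK1 in mitosis, ranged from 116.6 to 248.3 CPM in shHMGA1 samples with a median of 133.8, and from 35.5 to 55.8 CPM in RIS+shHMGA1 samples with a median of 47.7. The groups did not overlap, and replicate 4 was the highest shHMGA1 sample. The log2 fold change was −1.69 ± 0.32 (3.24-fold lower, adjusted p = 0.000331). In RIS against growing it was −1.23 ± 0.32 with all samples (adjusted p = 0.0189) and −1.80 ± 0.23 without the departing libraries (adjusted p = 3.64e-07).

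CDK1 (chromosome 10, 62538089 to 62554610), the mitotic kinase, ranged from 69.5 to 130.6 CPM in shHMGA1 samples with a median of 81.4, and from 10.02 to 23.0 CPM in RIS+shHMGA1 samples with a median of 17.6. Its log2 fold change was −2.37 ± 0.43 (5.16-fold lower, adjusted p = 0.000293). Growing samples other than replicate 4 ranged from 34.0 to 86.4 CPM and RIS samples other than replicate 2 from 4.99 to 10.03 CPM, with 15.6 and 44.1 CPM in the exceptions. CDK1 had the largest fall of the 10 genes in RIS without these libraries, 7.08-fold (−2.82 ± 0.27, adjusted p = 2.73e-09). With all samples the log2 fold change was −1.87 ± 0.43 (adjusted p = 0.0151).

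The mean log2 CPM of the S and M cyclins CCNA2 and CCNB1, less that of the 3 D-type cyclins, gives the balance of the classes within a sample, in which library scaling largely cancels. Its median was −0.65 in shHMGA1 samples, from −1.08 to 0.20, and −1.82 in RIS+shHMGA1 samples, from −2.48 to −1.58. These groups did not overlap. Growing samples had a median of −1.34, from −1.85 to −0.52, and RIS samples of −2.36, from −3.74 to −1.58. These overlapped through growing replicate 4 (−1.85) and RIS replicate 2 (−1.58), and without them growing samples lay between −1.73 and −0.52 and RIS samples between −3.74 and −2.20. The S and M cyclins were thus lower relative to the D-type cyclins in every RIS+shHMGA1 sample than in any shHMGA1 sample.

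**Figure D3:**
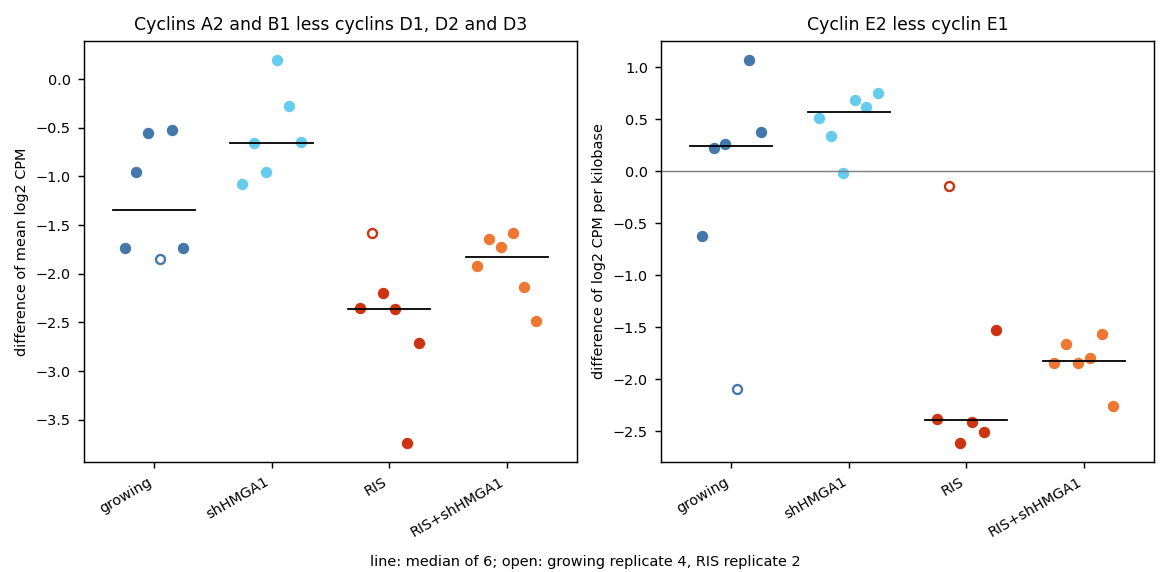
Balance between classes of cyclins in each of 24 samples. Left, mean log2 CPM of CCNA2 and CCNB1 less that of CCND1, CCND2 and CCND3. Right, log2 CPM per kilobase of CCNE2 less that of CCNE1. Points are samples in order of replicate number, lines are medians of 6, and open circles are growing replicate 4 and RIS replicate 2. In the right panel the RIS+shHMGA1 samples lie between −2.26 and −1.56 and the shHMGA1 samples between −0.02 and 0.75.

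Levels per kilobase, on the CPM scale divided by canonical length, put CCND1 first in each group, with medians of 477.1 in growing, 431.4 in shHMGA1 and 290.7 in RIS samples without the departing libraries. In growing samples CCND3 (62.4) and CCNB1 (57.0) came next, and their ranges of 55.7 to 75.2 and 29.5 to 77.9 overlapped. CDK2 (38.1), CDK1 (35.4) and CCNA2 (34.6) followed within each other's ranges. CDK6 (13.7), CCNE2 (6.08), CCNE1 (5.74) and CCND2 (4.45) were lowest, the last 3 with overlapping ranges. In RIS samples CCNE1 had rank 4 at 11.1 and CCNE2 rank 10 at 2.09, where in growing samples they had ranks 9 and 8. With the union of all exons in place of the canonical length, CCND3 moved from rank 2 to rank 4 in growing samples.

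The hairpin without RAS left all 10 genes short of the thresholds. In shHMGA1 against growing, edgeR called none of them and 0.27% of all genes, no gene of the 10 had an unadjusted p under 0.05, where 13.2% of all genes did, and DESeq2 and voom also called none of the 10, with 0.736% and 6.33% of all genes. Without growing replicate 4, which enters this comparison, and RIS replicate 2, edgeR again called none, where 2.59% of all genes passed, and 4 of the 10 had an unadjusted p under 0.05, a share close to the 38.9% of all genes that did. The largest of those differences were in CDK1 (0.55 ± 0.23, adjusted p = 0.0793) and CDK6 (−0.50 ± 0.17, adjusted p = 0.0397). CDK6 lay between 85.0 and 146.2 CPM in shHMGA1 and between 117.0 and 194.1 CPM in the 5 growing samples, and CDK1 between 69.5 and 130.6 against 34.0 and 86.4 CPM, so that both overlapped. CDK2 differed by 0.08 ± 0.09, with an interval of −0.10 to 0.25 at 2 standard errors.

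In RIS+shHMGA1 against RIS, edgeR called none of the 10 genes with all samples and 2.55% of all genes, and 4 of the 10 had an unadjusted p under 0.05, against 49.8% of all genes. DESeq2 called none of the 10 and 11.5% of all genes, and voom called 1 of the 10 and 13.9% of all genes. RIS replicate 2 enters this comparison. With it, CDK6 differed by −1.26 ± 0.42 (adjusted p = 0.0293), CCND3 by −0.59 ± 0.16 (adjusted p = 0.0146), CDK2 by −0.73 ± 0.33 (adjusted p = 0.0767) and CDK1 by 0.24 ± 0.42 (adjusted p = 0.664). Without the departing libraries CDK1 passed, as did 12.5% of all genes.

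CDK1 was then 2.00-fold higher in RIS+shHMGA1 than in RIS samples (1.00 ± 0.26, adjusted p = 0.00538). The 5 RIS samples lay between 4.99 and 10.03 CPM and the RIS+shHMGA1 samples between 10.02 and 23.0 CPM, overlapping only in the lowest of the latter, replicate 6. All RIS+shHMGA1 samples lay below the lowest growing sample other than replicate 4, at 34.0 CPM. CCNB1 leaned the same way, with 0.58 ± 0.22 (adjusted p = 0.0394), and it alone had every RIS+shHMGA1 sample, from 35.5 CPM up, above the 5 RIS samples, up to 35.2 CPM, an order that 8.62% of all genes had. CCNA2 differed by 0.41 ± 0.19 without the departing libraries (adjusted p = 0.0913) and by −0.32 ± 0.40 with them, a turn of sign that RIS replicate 2, at 67.8 CPM, goes with.

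None of the other 7 genes passed in RIS+shHMGA1 against RIS without the departing libraries. CCND3 differed by −0.44 ± 0.11 (adjusted p = 0.00519), under the fold-change threshold, with the 5 RIS samples at 66.6 to 93.5 CPM and the RIS+shHMGA1 samples at 50.5 to 74.2 CPM. CDK6 differed by −0.57 ± 0.18 (adjusted p = 0.0149), with 24.9 to 43.0 against 16.1 to 30.3 CPM. CCND1 differed by −0.24 ± 0.14 (adjusted p = 0.179) and CDK2 by −0.15 ± 0.09 (adjusted p = 0.195). CCND2 differed by −0.15 ± 0.20, CCNE1 by −0.15 ± 0.16 and CCNE2, in the other direction, by 0.32 ± 0.34. RIS samples are shared between this comparison and that of RIS against growing, so a low or high RIS sample enters both.

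**Figure D4:**
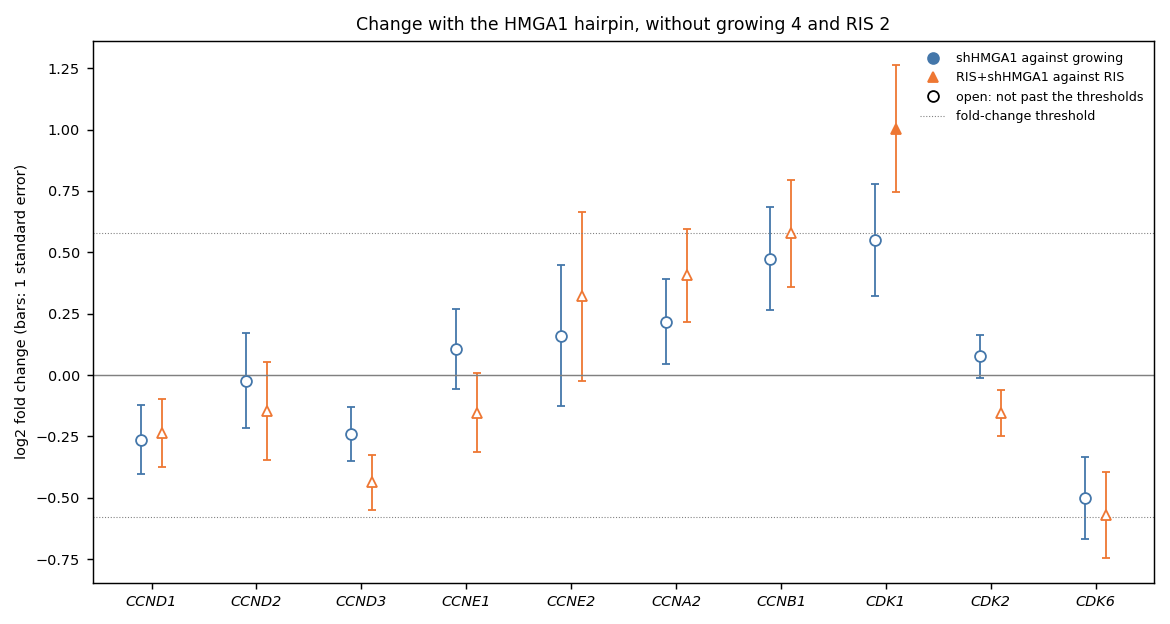
Log2 fold change of each gene with the HMGA1 hairpin without growing replicate 4 and RIS replicate 2, in growing cells (circles, shHMGA1 against growing) and in RIS cells (triangles, RIS+shHMGA1 against RIS). Bars are 1 standard error, filled symbols passed the thresholds, and dotted lines mark ±0.58. CDK1 in RIS cells, at 1.00, is the only filled symbol, and CDK6 lies at −0.50 and −0.57.

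The difference between the RAS effects with and without the hairpin was tested as an interaction. None of the 10 genes passed in edgeR, where 0% of all genes passed, or in voom, where 0.0524% did. In edgeR 1 of the 10, CDK2, had an unadjusted p under 0.05, as did 10.3% of all genes. DESeq2 gave an adjusted p to 1437 genes only, CCND1 alone of the 10, and is not counted here. The estimate for CDK2 was −1.0 ± 0.45 (adjusted p = 0.426). Without the departing libraries no gene of the 10 had an unadjusted p under 0.05, against 3.82% of all genes, and 0.00745% of all genes passed. The fall of the S and M genes with RAS was therefore not shown to differ between cells with the vector and cells with the hairpin.

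Lists of other genes of the pathway were described in RIS+shHMGA1 against shHMGA1 with all samples, where 39.1% of all genes tested changed and 19.5% fell. Of 14 tested cyclins and CDKs of the cell cycle besides the 10, 3 fell and 6 rose, with a median log2 fold change of 0.17. CCNB2, a second mitotic cyclin, fell by 2.55 ± 0.44 and CCNF, which helps degrade cell cycle proteins, by 2.33 ± 0.40. CDK15 fell by 3.08 ± 0.46. CDK4, CDK5, CDK14, CDK17, CDK20 and CCNG1, a p53 target, rose, by 0.69 to 1.3 on the log2 scale. CCNB2 thus had the direction of CCNB1, while 6 of the 14 genes had the opposite one.

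Among 17 cyclins, CDKs and a partner that act in transcription and splicing, 6 rose, 2 fell and the median was 0.45. Of all genes, 39.1% changed there. CCNH, CDK7 and MNAT1, the subunits of the CDK-activating kinase, rose by 1.19 ± 0.30, 0.82 ± 0.22 and 0.72 ± 0.22. CDK9, the elongation kinase, differed by 0.10 ± 0.09 (adjusted p = 0.342). The CDK-activating kinase phosphorylates CDK1, CDK2, CDK4 and CDK6, of which CDK4 alone rose here. In RIS against growing without the departing libraries, 2 of these 17 genes rose and 2 fell, where 39.7% of all genes changed.

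Of 8 CDK inhibitors, 2 rose and 4 fell, where 39.1% of all genes changed and 19.5% fell. CDKN1A, which encodes p21, rose by 0.90 ± 0.26 and CDKN2A, which encodes p16 and ARF, by 1.72 ± 0.35. CDKN2C, which encodes p18, fell by 3.90 ± 0.68, CDKN3 by 2.25 ± 0.53, CDKN2D by 1.00 ± 0.21 and CDKN1B, which encodes p27, by 0.67 ± 0.13. In RIS against growing without the departing libraries CDKN1A, CDKN2A and CDKN2B rose, by 0.92, 1.58 and 1.35, and CDKN1B, CDKN2C, CDKN2D and CDKN3 fell. Of all genes, 39.7% changed there and 20.5% fell. In RIS+shHMGA1 against RIS without those libraries CDKN2A rose by 0.83 ± 0.16 (adjusted p = 0.00142) and CDKN3 by 1.77 ± 0.39 (adjusted p = 0.00247), where 12.5% of all genes changed.

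Of 7 kinases, phosphatases and adaptors that act on CDKs, 6 fell, with a median of −1.67, where 19.5% of all genes fell. CDC25A, CDC25B and CDC25C, the phosphatases that activate CDKs, all fell, with log2 fold changes of −1.67, −1.90 and −2.84, as did PKMYT1 and WEE1, the kinases that inhibit CDK1, with −3.16 and −0.70. CKS1B fell by 1.07 ± 0.24, while CKS2 differed by 0.78 ± 0.30 (adjusted p = 0.0256) and passed only without the departing libraries. CKS2 was higher in RIS+shHMGA1 than in RIS by 1.40 ± 0.30 with all samples (adjusted p = 0.00692), and without the departing libraries CKS1B, by 1.07 ± 0.25, and CKS2, by 1.29 ± 0.25, both rose there with CDK1, the kinase to which they bind. Within this list the phosphatases that activate CDKs and the kinases that inhibit CDK1 fell together with RAS. CDKN1A and the subunits of the CDK-activating kinase, described above, rose.

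Of 13 tested genes for cyclin turnover, 6 fell and none rose, with a median of −0.53. Of all genes, 39.1% changed and 19.5% fell. CDC20, the mitotic activator of the anaphase-promoting complex, fell by 3.11 ± 0.52 on the log2 scale. Its inhibitor FBXO5 and the ubiquitin-conjugating enzyme UBE2C fell as well, with log2 fold changes of −2.63 ± 0.44 and −2.92 ± 0.51. FBXW7, the ligase subunit that targets cyclin E, differed by −0.23 ± 0.16 (adjusted p = 0.226), and AMBRA1, which targets D-type cyclins, by −0.23 ± 0.15 (adjusted p = 0.185). SKP2, FZR1 and BTRC fell by 0.98, 0.71 and 0.58.

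Of 20 RB, E2F and DREAM factors, 9 fell and 4 rose, with a median of −0.33. Of all genes, 39.1% changed and 19.5% fell. The activating E2F genes were split, with E2F1 lower by 2.24 ± 0.42 and E2F2 by 4.74 ± 0.91, and E2F3 differing by −0.35 ± 0.11. MYBL2 and FOXM1, which activate mitotic genes with MuvB, fell by 4.77 ± 0.84 and 3.36 ± 0.61. RBL1 and RB1 fell by 2.77 ± 0.50 and 1.1 ± 0.25, while RBL2, the pocket protein of DREAM in resting cells, differed by −0.06 ± 0.10 (adjusted p = 0.591). E2F5, E2F6, E2F7 and LIN37 rose, by 0.59 to 1.21. The factors that switch S and M genes on were thus among those that fell, and the DREAM subunits RBL2 and LIN52 did not pass.

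The 5 proliferation markers all fell, with a median of −2.70, and the 5 secretome markers all rose, with a median of 3.69. Of all genes, 39.1% changed and 19.5% fell. Proliferation markers summed to between 528.5 and 780.1 CPM in shHMGA1 and between 159.8 and 189.3 CPM in RIS+shHMGA1 samples, and the secretome markers to between 7939 and 14035 and between 78785 and 129560 CPM. Their part in the cyclin and CDK results was not tested. Of the cell type lists, 6 of 7 fibroblast genes fell, with a median of −2.44, none of the 2 epithelial genes and the 1 leukocyte gene tested passed, and no endothelial gene was abundant enough to be tested.

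For each gene that fell, the gene outside the 10 with the most similar profile was found by the root mean square difference of centred log2 CPM over all 24 samples. The nearest were MELK for CCNA2 (0.180), PBK for CDK1 (0.182), PTTG1 for CCNB1 (0.217), TES for CDK2 (0.170), NID1 for CDK6 (0.195), RUSC1 for CCND3 (0.104) and DDIAS for CCNE2 (0.287). MELK and PBK are mitotic kinases and PTTG1 is the securin of the metaphase to anaphase transition. NID1, a basement membrane protein, and TES, a focal adhesion protein, act outside the nucleus.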

How the data were processed

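The authors mapped reads to hg19 with STAR 2.5.0b, trimmed adapters with cutadapt 1.10.0, kept alignments of mapping quality 20 or more, and counted reads per gene with Rsubread; they deposited raw counts per Entrez identifier, without normalisation. The gene annotation and strand setting of the counting are not given in the sources used here. Symbols came from a RefSeq table, coordinates and lengths from GENCODE 44 lifted to GRCh37.

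Genes were filtered with filterByExpr, normalised by TMM and fitted by group over all 24 samples with edgeR 4.0.16 (R 4.3.3), by quasi-likelihood tests with Benjamini-Hochberg adjustment over all genes tested. Total counts ranged from 8698070 to 23103424, and no library pair within a group agreed within sampling noise. CPM use TMM library sizes, log2 CPM a prior count of 2, and ± is 1 standard error, from a spread that all samples of a fit share. DESeq2 1.42.0, limma 3.58.1 (voom), other filters and thresholds, a replicate block, and leaving out samples were tried as alternatives. All 10 genes were named, with HMGA1, the genes overlapping them, and genes of fixed lists. The genes and lists were chosen with earlier results of these data known. Chromatin assays of the series were not used here.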

Additional observations from a re-analysis of the deposited data

Results flagged for a closer look

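The gaps within 52 sets of 6 samples were examined, those of the 10 genes and of the total counts among them. In 13 sets the highest or lowest sample was set apart by a gap above Dixon's 95% critical value. Chance would give about 2.6 of the 52. Of these, 3 were growing replicate 4, as the lowest sample in CCNA2 (gap of 0.654 of the range), CDK2 (0.893) and CDK6 (0.774). Another 5 were RIS replicate 2, as the highest sample in CCNA2 (0.637), CCNB1 (0.640), CDK1 (0.683), CDK2 (0.842) and CDK6 (0.701). These are the libraries whose IL1A and MKI67 go against their labels.

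The other 5 were in other samples. RIS+shHMGA1 replicate 6 was the highest of its group in CCND3 (0.662) and the lowest in CCNE2 (0.754). The highest CCNB1 of the shHMGA1 samples was in replicate 4 (0.698). Total counts stood apart in growing replicate 1 (0.796) and RIS replicate 3 (0.684), both the highest of their groups.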

How the results depend on the processing

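The call in RIS against growing depends on growing replicate 4 and RIS replicate 2. Against 0 of the 10 genes with all samples in edgeR, 5 passed with DESeq2, 10 with voom and sample weights, and 6 at an FDR of 0.05. Without both libraries 9 passed, also with a replicate block, and 10 without both and without numbers 5 and 6. Both ways of leaving samples out were chosen after the data were seen. Leaving out 1 sample at a time gave 0 to 7, with 7 without either of these libraries and 0 otherwise. In RIS+shHMGA1 against RIS the count went from 0 to 1 with voom, without both libraries, with the block added to that, and also without numbers 5 and 6, and to 2 at an FDR of 0.05. In shHMGA1 against growing it went from 0 to 1 without both libraries and numbers 5 and 6. CCNA2 in RIS+shHMGA1 against RIS went from −0.32 to 0.33 with voom, 0.41 without both libraries, 0.36 with the block added and 0.36 without numbers 5 and 6, and from −0.50 to 0.41 when 1 sample was left out. CCND2 in RIS against growing ranged from −0.30 to 0.013 in the same way, above 0 only without growing replicate 1. RIS+shHMGA1 against shHMGA1 gave 7 to 10 calls under all alternatives, with 5187 to 6573 of all genes called. It gave 7 whichever sample was left out, with 4349 to 5432 of all genes. The interaction gave 0 in every fit but DESeq2, which gave 9 of the 10 genes no adjusted p. Calls over all genes in RIS against growing went from 0 to 829 with DESeq2, 6317 with voom, 5331 without both libraries, 5246 with the block added, 1537 at an FDR of 0.05 and 6444 without numbers 5 and 6. In shHMGA1 against growing they went from 36 to 98, 845, 348, 484, 85 and 964 in the same order, to 23 with no low-count filter and to 5 in a fit of these samples alone. In RIS+shHMGA1 against RIS they went from 341 to 1533, 1856, 1677, 1938, 2898 and 1404, and to 189 with no filter. Leaving out 1 sample gave 0 to 3420, 10 to 67 and 62 to 492 genes in these comparisons, the highest without growing replicate 4 in the first and second of them and without RIS+shHMGA1 replicate 5 in the last, and the lowest without shHMGA1 replicate 6 in the second and RIS replicate 5 in the last.

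The samples were taken to share only a number, since with all samples in no comparison were all 6 correlations of same-numbered deviations over 0.1 (−0.59 to 0.83 in RIS against growing). Without both departing libraries the pairs present were all over 0.1 in shHMGA1 against growing (0.23 to 0.54) and RIS+shHMGA1 against RIS (0.27 to 0.63), but not in RIS against growing (−0.44 to 0.43) or RIS+shHMGA1 against shHMGA1 (−0.03 to 0.32). Adding the replicate block there changed no call among the 10 genes, and CDK1 in RIS+shHMGA1 against RIS was 0.91 (adjusted p = 0.00225, edgeR). The replicate block alone gave 0 calls in RIS against growing, with 1 gene called over all, and 8 in RIS+shHMGA1 against shHMGA1, with 5667. It took all genes called in RIS+shHMGA1 against RIS from 341 to 1637. Of 24 samples, 10 correlated best with a sample of their own number, and without both departing libraries 5 of 22 did. Within this depth the spread between samples, and not counting, limits the precision.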
